A study of Mus musculus with 8 samples.

Results

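Dppa2, Dppa3, Dppa4, Dppa5a, Fbxo15, Utf1 and Tcl1 are genes of the pluripotent cells of the early mouse embryo, several of them known targets of the transcription factor Oct4. These 7 genes were picked by symbol from the 38924 lines of the deposited expression table, and the set was put together because Dppa2, Dppa3 and Dppa4 were lower in the inner cell mass of diapaused blastocysts. The study sequenced RNA from 3 groups, all labelled C57BL/6 and female. Diapaused inner cell mass (dICM, 3 libraries) came from blastocysts of mothers given tamoxifen and 0.5 mg of Depo Provera, a progestin, on embryonic day 3.5, and was collected after a further 5 days. Epiblast (Epi, 2 libraries) came from implanted embryos at day 6.5, and inner cell mass (ICM, 3 libraries) from untreated blastocysts at day 3.5. Each library is a pool of about 50 embryos, and the trophectoderm, the outer layer of the blastocyst, had been lysed with antibody and complement before the inner cell mass was taken. The dICM therefore differs from ICM in embryo age and in the drugs given to the mother as well as in diapause, and these cannot be told apart.

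In embryonic diapause a blastocyst halts its growth before it implants, and can resume later. The inner cell mass holds the naive pluripotent cells that form the embryo proper together with the primitive endoderm, and after implantation the epiblast leaves the naive state and turns down many of its genes. Oct4, encoded by Pou5f1, binds with Sox2 at enhancers of pluripotency genes such as Utf1 and Fbxo15. Dppa2 and Dppa4 encode DNA-binding partners that work as a pair, Dppa3 (Stella) protects the maternal genome from demethylation after fertilisation, Dppa5a encodes an RNA-binding protein with a KH-like domain, Fbxo15 an F-box protein, Utf1 a chromatin-bound protein of pluripotent cells, and Tcl1 a co-activator of the kinase Akt.

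Levels are given as adjusted TPM, the authors' measure of transcript abundance per length, and a difference is on the scale log2(adjusted TPM + 1), ± SE. The read depth behind the values is unknown, since they keep no counts. Column sums ranged from 720674 in ICM replicate 2 to 1179026 in dICM replicate 1, and 14634 to 15130 genes reached 1 in a library. The libraries are bulk samples, in which fewer cells of a type and less RNA per cell cannot be told apart. A gene was tested if it was at 1 or more in at least 2 libraries, which held for 17698 genes and for each of the 7. Calls rest on limma's moderated test with Benjamini-Hochberg adjustment over all 17698 genes at a threshold of 0.05. For dICM against ICM the 7 genes have no test, because that difference chose them. The Epi libraries played no part in the choice, but the dICM and ICM libraries they are set against did.

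Dppa3 (ENSMUSG00000046323) had the widest range of the 7. Its level was 45.9, 59.6 and 44.2 adjusted TPM in the dICM libraries, 3.68 and 2.31 in the Epi libraries, and 1051, 1361 and 987 in the ICM libraries. No library of one group reached into another, with ICM at the top, dICM between and Epi at the bottom. In ICM, 99.4% of the tested genes had a lower group mean than Dppa3, which took place 113 by level, whereas in dICM it took place 1936 and in Epi place 10471. The mean was 49.9 ± 8.45 in dICM (SD, n = 3) and 1133 ± 200 in ICM (SD, n = 3), 22.7-fold lower in dICM and a difference of -4.48 ± 0.24. Dppa3 fell in Epi against ICM, with a difference of -8.16 ± 0.27 (adjusted p = 2.5e-06), which took place 2 from the lowest among all 17698 genes. In dICM it was higher than in Epi by 3.68 ± 0.27 (adjusted p = 5.1e-05).

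Dppa2 (ENSMUSG00000072419), the DNA-binding partner of Dppa4, followed the same order. It was at 8.28, 9.09 and 10.3 adjusted TPM in dICM, at 0.797 and 0.846 in Epi, and at 77.3, 75.4 and 91.3 in ICM. The replicates lay close together in every group, with a coefficient of variation of 11.0% in dICM, 4.23% in Epi and 10.7% in ICM, and the groups did not overlap. The mean was 9.22 ± 1.01 in dICM (SD, n = 3) and 81.3 ± 8.70 in ICM (SD, n = 3), 8.82-fold lower in dICM and a difference of -3.01 ± 0.19. Dppa2 fell in Epi against ICM (-5.49 ± 0.22, adjusted p = 3.5e-06) and was higher in dICM than in Epi by 2.48 ± 0.22 (adjusted p = 0.00011), or by 1.29 with a pseudocount of 5 in place of 1.

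Dppa4 (ENSMUSG00000058550) varied more between pools. It was at 4.23, 7.33 and 7.92 adjusted TPM in dICM, at 1.72 and 2.73 in Epi, and at 49.8, 26.4 and 52.3 in ICM. ICM replicate 2 lay well below the other ICM libraries but above every dICM library, and dICM lay above Epi. The difference of dICM from ICM was -2.53 ± 0.33, and Dppa4 fell in Epi against ICM (-3.72 ± 0.37, adjusted p = 0.00018). The difference of dICM from Epi was 1.20 ± 0.37 (adjusted p = 0.033), a call that was lost without Epi replicate 1 (adjusted p = 0.19), Epi replicate 2 (0.074), dICM replicate 2 (0.077) or dICM replicate 3 (0.088), with a pseudocount of 5 (0.66, adjusted p = 0.10) and with no filter on low values (0.11). Dppa4 and Dppa2 are adjacent in the RefSeq order of protein-coding genes, and their ratio was not constant. The level of Dppa2 over that of Dppa4 was 1.24 to 1.96 in dICM, 0.310 to 0.464 in Epi and 1.55 to 2.85 in ICM, so that Dppa2 was the higher in every blastocyst library and Dppa4 the higher in both Epi libraries.

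**Figure D1:**
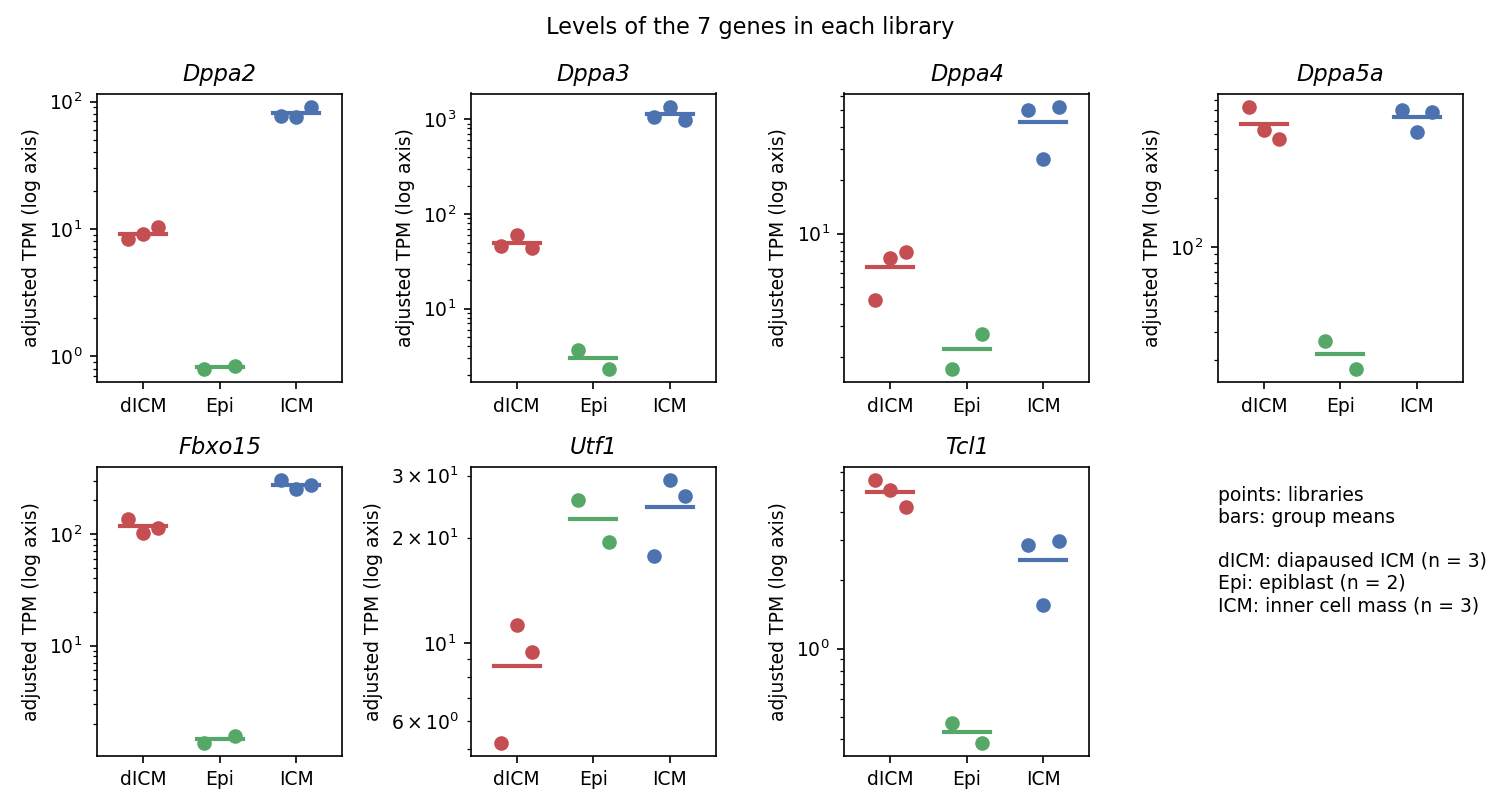
Level of each of the 7 genes in each library, in adjusted TPM on a log axis whose range differs between panels, for dICM (n = 3), Epi (n = 2) and ICM (n = 3). Points are libraries and bars group means. Dppa2, Dppa3, Dppa4 and Fbxo15 stand in the order ICM, dICM, Epi, Dppa5a overlaps between dICM and ICM, Utf1 is lowest in dICM, and Tcl1 is highest in dICM.

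Dppa5a (ENSMUSG00000060461), the RNA-binding member of the family, differed from the other Dppa genes in dICM. Its level was 733, 529 and 465 adjusted TPM in dICM, 26.1 and 17.7 in Epi, and 697, 512 and 677 in ICM. The dICM and ICM libraries overlapped, the highest and the lowest of the 6 both being dICM, and both Epi libraries lay far below. The mean was 576 ± 140 in dICM (SD, n = 3) and 629 ± 102 in ICM (SD, n = 3), a difference of -0.14 ± 0.26, and it took place 323 by level in dICM and place 249 in ICM. Dppa5a fell in Epi against ICM (-4.79 ± 0.29, adjusted p = 1.8e-05) and was higher in dICM than in Epi by 4.65 ± 0.29 (adjusted p = 2.3e-05).

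Fbxo15 (ENSMUSG00000034391), whose F-box protein belongs to an SCF ubiquitin ligase and which is a marker gene of pluripotent cells, was intermediate in dICM. It was at 136, 103 and 113 adjusted TPM in dICM, at 1.35 and 1.55 in Epi, and at 304, 254 and 273 in ICM. The groups did not overlap, and on the log scale dICM stood much nearer to ICM than to Epi. It was 2.37-fold lower in dICM than in ICM (-1.24 ± 0.20). Its fall in Epi against ICM was 191-fold by group means (-6.82 ± 0.23, adjusted p = 2.5e-06), which was place 3 from the lowest of all differences, and it was higher in dICM than in Epi by 5.58 ± 0.23 (adjusted p = 7.4e-06).

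Utf1 (ENSMUSG00000047751) was the exception to the fall in Epi. It was at 5.22, 11.3 and 9.42 adjusted TPM in dICM, at 25.6 and 19.4 in Epi, and at 17.7, 29.1 and 26.3 in ICM. Every dICM library lay below every library of the other groups, while Epi and ICM overlapped. The difference of dICM from ICM was -1.42 ± 0.31, or 2.82-fold lower by group means. Between Epi and ICM the difference was -0.09 ± 0.35 (adjusted p = 0.86), which does not show the groups to be alike. Utf1 fell in dICM against Epi (-1.33 ± 0.35, adjusted p = 0.018), and this call was lost without Epi replicate 1 (0.12), without Epi replicate 2 (0.052) and with no filter on low values (0.062).

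Tcl1 (ENSMUSG00000041359), which encodes an Akt co-activator, had the lowest mean of the 7 in every group and was the only one with all dICM libraries above all ICM libraries. It was at 5.54, 5.03 and 4.20 adjusted TPM in dICM, at 0.471 and 0.385 in Epi, and at 2.86, 1.55 and 2.99 in ICM. The groups did not overlap, and ICM replicate 2 was the lowest ICM library, as it was for Dppa2, Dppa4, Dppa5a and Fbxo15. The mean was 4.92 ± 0.673 in dICM (SD, n = 3) and 2.47 ± 0.796 in ICM (SD, n = 3), 1.99-fold higher in dICM and a difference of 0.79 ± 0.23. Tcl1 was higher in dICM than in Epi by 2.05 ± 0.26 (adjusted p = 0.00065). Its fall in Epi against ICM (-1.25 ± 0.26, adjusted p = 0.0081) was lost without Epi replicate 1 or Epi replicate 2, with an adjusted p of 0.054 each time. With a pseudocount of 5 the differences of this low gene were 0.41 for dICM minus ICM, -0.45 for Epi minus ICM and 0.87 for dICM minus Epi, and with one of 0.1 the last 2 were -2.23 and 3.24.

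The promoters of Utf1 and Tcl1, genes whose order of levels departed from that of Dppa2, Dppa3, Dppa4 and Fbxo15, are shown as the 2 of the 7 that matched in the RefSeq promoter table used here, on build GRCm38.p6, 5′ to 3′ on the gene's strand, from 250 bases before the start to 50 after. The Utf1 promoter is chr7:139943606-139943905 on the plus strand and the Tcl1 promoter is chr12:105222688-105222987 on the minus strand. Capitals mark matches to the GC box GGGCGG on either strand. 
Utf1: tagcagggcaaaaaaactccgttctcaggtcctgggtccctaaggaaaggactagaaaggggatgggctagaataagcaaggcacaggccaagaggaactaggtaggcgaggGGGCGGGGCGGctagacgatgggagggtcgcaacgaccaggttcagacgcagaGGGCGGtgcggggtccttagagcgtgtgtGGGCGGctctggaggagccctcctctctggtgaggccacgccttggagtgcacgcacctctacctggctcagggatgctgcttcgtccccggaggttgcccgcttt
Tcl1: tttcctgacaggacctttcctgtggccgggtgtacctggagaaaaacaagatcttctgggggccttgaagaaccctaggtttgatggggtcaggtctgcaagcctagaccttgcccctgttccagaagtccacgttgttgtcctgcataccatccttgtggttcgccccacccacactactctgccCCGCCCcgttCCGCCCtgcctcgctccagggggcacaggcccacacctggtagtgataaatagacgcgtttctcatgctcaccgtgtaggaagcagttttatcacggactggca
The Utf1 promoter held 4 GC boxes, at 138, 133, 85 and 56 bases before the start, of which the first and the second overlap by their end bases, and the Tcl1 promoter held 2, on the opposite strand. A GC box is in 35.7% of the 32851 RefSeq promoters of the same length. The GC content was 62.0% for Utf1 and 56.7% for Tcl1, against a median of 52.7% over all promoters. Searched on both strands, the octamer ATGCAAAT, the Sox motif ACAAAG, the E-box CACGTG, the TATA box TATAAA and the CCAAT box CCAAT had no match in either window; they are in 1.74%, 18.7%, 7.15%, 13.6% and 37.4% of all promoters. A match describes letters only, and no match says only that these letters are not in these windows.

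Set side by side, 5 of the 7 genes were lower in dICM than in ICM with no overlap between groups, 1 was higher with no overlap and 1 overlapped. Over all genes tested, 14.4% were lower without overlap and 16.4% higher without overlap, and 13.3% were called in this comparison; since it chose the genes, nothing is read from their count. In Epi against ICM, 6 of the 7 fell and 0 rose, Utf1 being the exception, where 13.3% of all genes were called lower, 16.7% higher and 30.1% in either direction. The same 6 were lower in Epi with no overlap between groups, as were 25.0% of all genes, with 33.9% higher without overlap. In dICM against Epi, 6 were higher and 1, Utf1, was lower, where 16.0% of all genes were called higher, 18.6% lower and 34.5% in either direction. All of these 7 differences were without overlap, which held for 27.3% of all genes in the higher and 34.1% in the lower direction. The median difference over the 7 genes was -1.42 for dICM minus ICM, -4.79 for Epi minus ICM and 2.48 for dICM minus Epi, against 0.00, 0.14 and -0.11 over all genes tested. The median for dICM minus ICM rests on the difference that chose the genes, so nothing is read from it either. Any pair of these comparisons shares the libraries of a group. Rescaling every library to the same sum moved the median of all genes in dICM minus ICM to -0.20, and none of the 7 genes changed the sign of a called or non-overlapping difference under any rescaling tried.

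**Figure D2:**
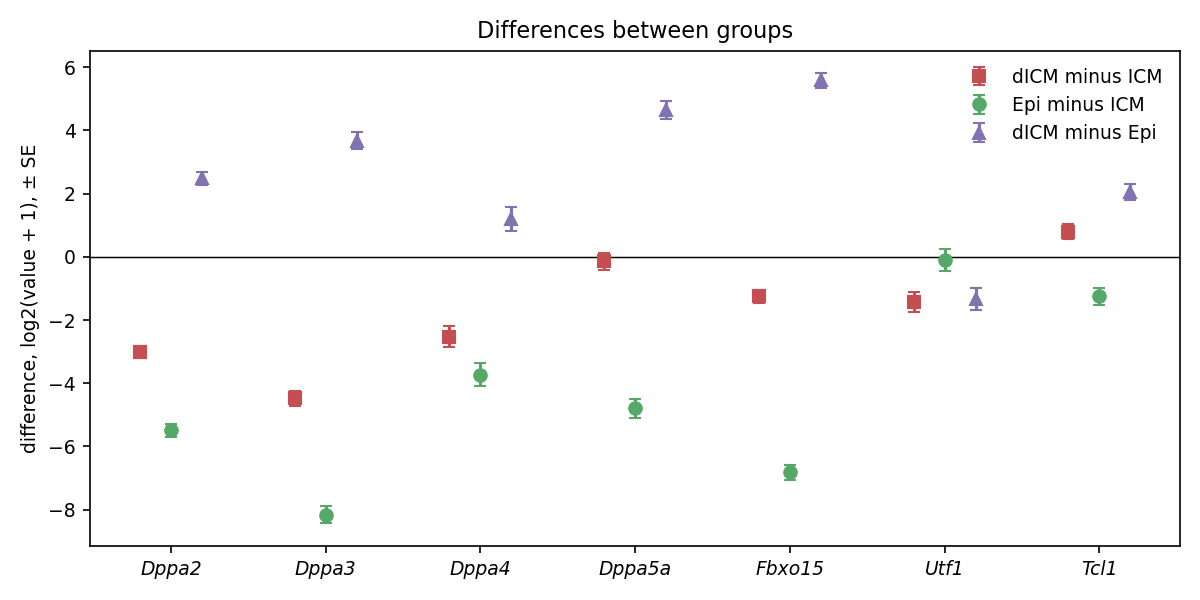
Difference between groups for each of the 7 genes on the scale log2(adjusted TPM + 1), with bars of 1 SE from the limma fit: dICM minus ICM (squares), Epi minus ICM (circles) and dICM minus Epi (triangles). Epi minus ICM is far below 0 for Dppa3 (-8.16) and Fbxo15 (-6.82) and near 0 for Utf1 (-0.09), while Tcl1 (0.79) is above 0 in dICM minus ICM.

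The make-up of the set changed along with its size. The summed level of the 7 genes was 654 to 938 adjusted TPM in dICM, 44.9 to 59.8 in Epi and 2110 to 2259 in ICM. Dppa3 held 4.89% to 8.23% of that sum in the dICM libraries, 5.14% to 6.16% in Epi and 46.8% to 60.2% in ICM. Dppa5a was the largest component of dICM, with 71.2% to 78.2%, against 22.7% to 32.1% in ICM. In Epi most of the sum was shared between Utf1, with 42.9% and 43.3%, and Dppa5a, with 43.7% and 39.3%. A share rises where other genes of the set are lower, so the larger share of Dppa5a in dICM stands beside a level that overlapped with ICM.

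**Figure D3:**
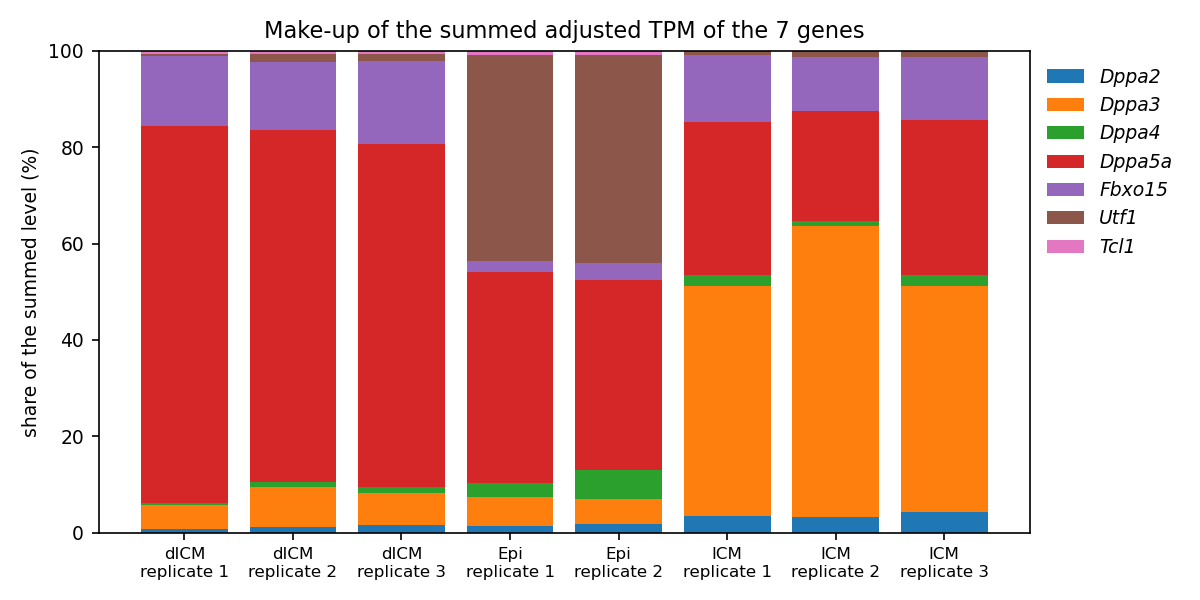
Share of the summed adjusted TPM of the 7 genes that each gene held in each library, in percent, from dICM on the left through Epi to ICM on the right. Dppa3 holds 46.8% to 60.2% of the sum in ICM, Dppa5a 71.2% to 78.2% in dICM, and Utf1 and Dppa5a hold most of the sum in Epi.

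Oct4 itself differed less between the groups than most of these genes. Pou5f1 was at 102, 115 and 100 adjusted TPM in dICM, at 70.5 and 66.2 in Epi, and at 118, 135 and 135 in ICM. All dICM libraries lay below all ICM libraries, but the difference did not pass the test (-0.29 ± 0.19, adjusted p = 0.38). In Epi Pou5f1 fell (-0.91 ± 0.21, adjusted p = 0.013), a call lost without Epi replicate 1 (0.080) or Epi replicate 2 (0.089). Relative to Pou5f1 in the same library, Dppa3 was at 0.440 to 0.519 in dICM, 0.0349 to 0.0523 in Epi and 7.30 to 10.1 in ICM. Dppa2 was at 0.0791 to 0.103 of the Pou5f1 level in dICM, 0.0113 to 0.0128 in Epi and 0.560 to 0.675 in ICM. Utf1 was at 0.0509 to 0.0981 in dICM, 0.294 to 0.363 in Epi and 0.150 to 0.216 in ICM, so that relative to Oct4 all 3 groups stood apart for this gene, with Epi the highest.

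**Figure D4:**
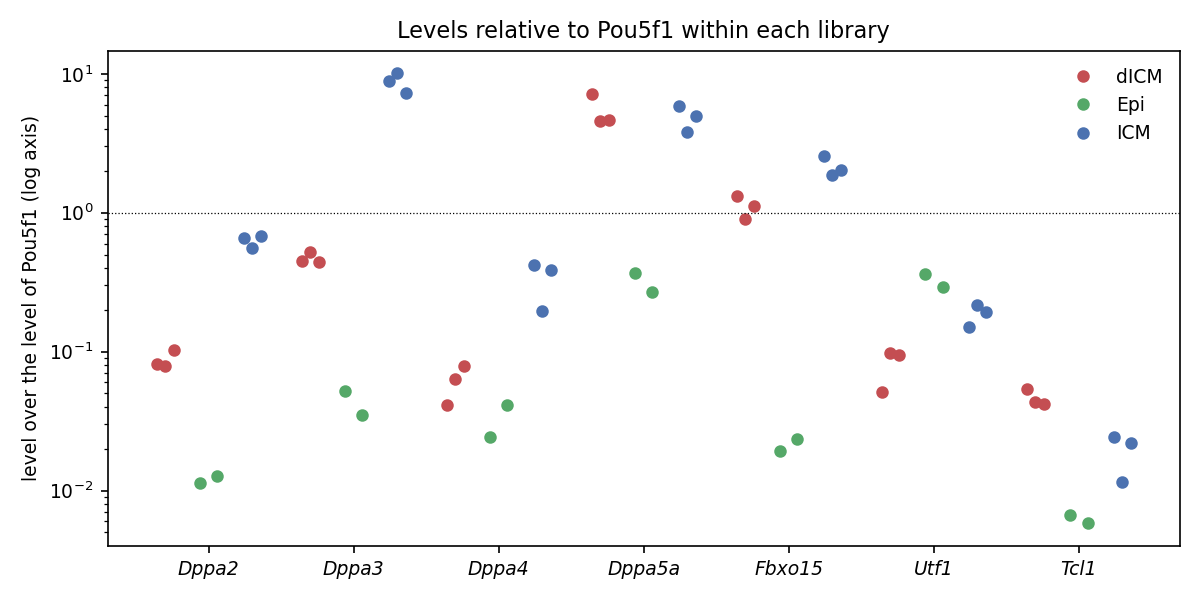
Level of each of the 7 genes divided by the level of Pou5f1 in the same library, on a log axis, with a point for each library; the dotted line marks equal levels. Dppa3 stands at 7.30 to 10.1 in ICM and at 0.440 to 0.519 in dICM, and Utf1 is highest in Epi.

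Reads of the Dppa genes may be shared with near-identical copies. A search of each gene's transcripts against the mouse transcript annotation, with at least 100 aligned bases at 95% identity or more, found copies for Dppa2, Dppa3, Dppa4 and Dppa5a and none for Fbxo15, Utf1 or Tcl1. Gm9788, a processed pseudogene 99.3% identical to Dppa2 over 906 bases, averaged 9.60 adjusted TPM in dICM, 1.20 in Epi and 90.6 in ICM, about the level of Dppa2 itself. Gm6269, 98.2% identical to Dppa3 over 451 bases, averaged 8.34 in dICM, 1.37 in Epi and 266 in ICM, and Gm15620, with 96.6% identity over 116 bases, averaged 22.5 in dICM, 4.82 in Epi and 654 in ICM. No source used here says how the authors' counting split such reads, so the level of these 4 Dppa genes is uncertain. The copies of Dppa2, Dppa3 and Dppa4 had the same order of group means as the gene, and those of Dppa5a were far lower in Epi than in dICM or ICM. The sum of Dppa3 and its copies was 71.0, 93.9 and 77.3 in dICM, 9.92 and 8.47 in Epi, and 2044, 1925 and 2190 in ICM. Dppa3 alone made up 45.0% to 70.7% of that sum in ICM, and ICM replicate 2, with the highest level of Dppa3, had the lowest sum. With copies summed, a setting chosen after the data were seen, dICM minus ICM was -3.13 for Dppa2, -4.66 for Dppa3, -2.45 for Dppa4 and -0.11 for Dppa5a, and the calls of these genes in Epi minus ICM and dICM minus Epi were the same as for the genes alone. Pigp, a protein-coding gene with 95.9% identity to Dppa5a over 417 bases of transcript, was not added to the sum.

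**Figure D5:**
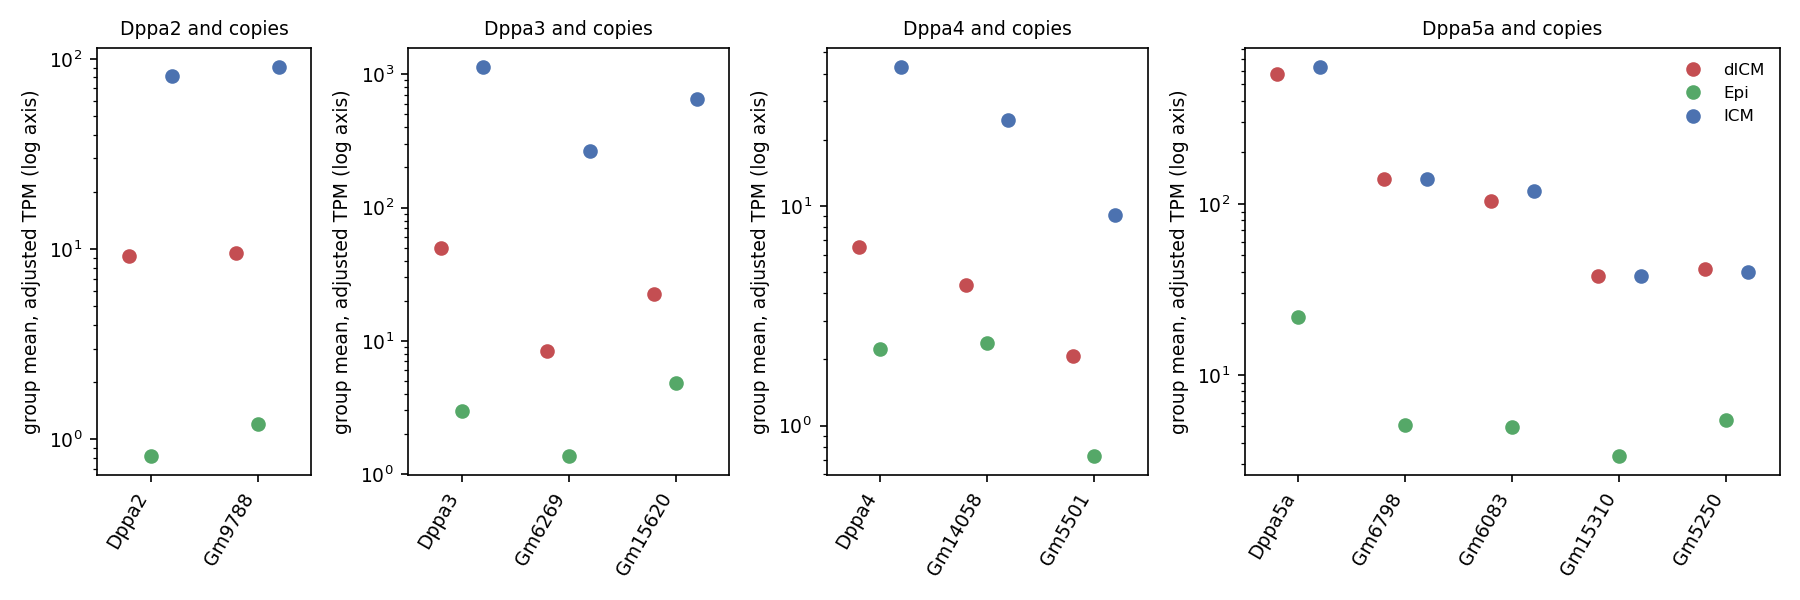
Group means of Dppa2, Dppa3, Dppa4 and Dppa5a and of their annotated pseudogene copies, in adjusted TPM on log axes, with dICM, Epi and ICM from left to right for each gene. Epi is lowest for every gene and copy shown, with ICM above dICM for the copies of Dppa2, Dppa3 and Dppa4 and both close together for copies of Dppa5a.

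The wider network was described through lists of related genes, chosen with earlier results of these data known. Of 16 genes for Oct4 and the naive factor circuit, 1 rose and 1 fell in dICM against ICM, where 7.52% of all genes were called higher and 5.81% lower, with a median of 0.02. Nr0b1 (Dax1), a nuclear receptor that binds Oct4, rose to 6.55 ± 2.13 adjusted TPM in dICM (SD, n = 3), against 0.659 ± 0.108 in ICM (SD, n = 3; 2.15 ± 0.25, adjusted p = 0.00095). Nr5a2, which can activate Pou5f1, was called lower in dICM (-1.07 ± 0.25, adjusted p = 0.025). This call was lost without any of ICM replicates 1 (0.075) and 3 (0.077) and dICM replicates 2 (0.073) and 3 (0.055). It was also lost with no filter on low values (0.085) and in a fit to the compared groups only (0.053). In Epi against ICM, 2 of the 16 rose and 11 fell, where 16.7% of all genes were called higher and 13.3% lower, with a median of -1.39. Without Epi replicate 1, 1 rose and 7 fell. Tfcp2l1 and Klf5, factors of the naive state, fell in Epi (-5.25 ± 0.23, adjusted p = 5.6e-06, and -5.15 ± 0.33, adjusted p = 2.1e-05), and in dICM against ICM their differences were -0.09 ± 0.20 (adjusted p = 0.83) and 0.53 ± 0.30 (adjusted p = 0.29). Nanog averaged 136 ± 18.1 in dICM (SD, n = 3), 74.8 ± 7.84 in Epi (SD, n = 2) and 193 ± 78.6 in ICM (SD, n = 3), where ICM replicate 2 was at 102 and the others at 232 and 244. Its difference in dICM (-0.41 ± 0.33, adjusted p = 0.49) passed the test without ICM replicate 2 (-0.81, adjusted p = 0.047). Sox2 was low in every group, at 2.10 ± 1.30 in dICM (SD, n = 3), 2.84 ± 2.61 in Epi (SD, n = 2) and 1.74 ± 0.716 in ICM (SD, n = 3).

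Other targets of Oct4 and Sox2 included several that fell in dICM. Of 16 tested, 1 rose and 6 fell against ICM, with a median of -0.64, where 7.52% of all genes were called higher and 5.81% lower. The 6 became 3 without ICM replicate 1 and 3 without dICM replicate 2. In Epi, 3 rose and 10 fell, with a median of -1.55, where the shares over all genes were 16.7% and 13.3%. Gdf3, a growth factor gene that neighbours Dppa3, averaged 1.81 ± 0.240 adjusted TPM in dICM (SD, n = 3), 0.746 ± 0.390 in Epi (SD, n = 2) and 10.6 ± 2.19 in ICM (SD, n = 3), and fell in dICM (-2.03 ± 0.23, adjusted p = 0.00080). Jarid2, which encodes a partner of Polycomb repressive complexes, fell in dICM (-2.01 ± 0.28, adjusted p = 0.0020), and Upp1, for uridine phosphorylase, fell in Epi (-5.22 ± 0.29, adjusted p = 1.2e-05). Otx2, a factor of the primed epiblast, rose in Epi by 4.59 ± 0.35 (adjusted p = 4.4e-05). Lefty1, an inhibitor of Nodal, was called higher in dICM (1.29 ± 0.28, adjusted p = 0.017), a call lost without ICM replicate 1 (0.056) or dICM replicate 1 (0.055).

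The next list came from a published set of genes expressed like Oct4, to which the Dppa genes also belong. Of 6 such genes tested, 0 rose and 4 fell in dICM, with a median of -2.36, and 6 fell in Epi, with a median of -4.07. Over all genes, 7.52% were called higher and 5.81% lower in dICM, and 16.7% and 13.3% in Epi. Pramel5 averaged 0.0453 ± 0.0228 adjusted TPM in dICM (SD, n = 3), 0.0467 ± 0.0185 in Epi (SD, n = 2) and 26.7 ± 5.47 in ICM (SD, n = 3), and fell in dICM (-4.71 ± 0.21, adjusted p = 1.1e-05). Pramel4 fell in dICM (-5.64 ± 0.26, adjusted p = 1.3e-05). Among 6 relatives of Dppa5a tested, from the KH-domain genes expressed in oocytes and their partners, 4 fell in dICM, 4 fell in Epi and 0 rose in either. The shares over all genes are those just given. Khdc3 averaged 0.0237 ± 0.0245 in dICM (SD, n = 3), 0.00975 ± 0.00343 in Epi (SD, n = 2) and 39.4 ± 15.4 in ICM (SD, n = 3), a difference of -5.22 ± 0.30 in dICM (adjusted p = 2.8e-05). Khdc1a fell to a mean of 0.440 ± 0.330 in dICM (SD, n = 3), against 4.79 ± 1.38 in ICM (SD, n = 3; adjusted p = 0.0023). Pramel5 and Khdc3 were near 0 in dICM and Epi and passed the filter on low values only through ICM. Khdc1a, at a mean of 0.440 in dICM, also passed it only through ICM. A fall from ICM was the only call open to these genes, so nothing is read from its direction or from their part in the counts.

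Genes of DNA methylation were described because Dppa3 displaces Uhrf1, which recruits the maintenance methyltransferase Dnmt1 to newly made DNA. Of 11 such genes tested, 2 rose and 4 fell in dICM, where 7.52% of all genes were called higher and 5.81% lower, and the 4 became 2 without ICM replicate 1 and 2 without ICM replicate 3. In Epi, 4 rose and 5 fell, where 16.7% of all genes were called higher and 13.3% lower. Uhrf1 was at 27.0, 34.1 and 38.0 adjusted TPM in dICM, at 34.5 and 23.8 in Epi, and at 175, 170 and 216 in ICM. All dICM and Epi libraries lay far below ICM, and they overlapped each other. Uhrf1 fell in dICM (-2.47 ± 0.24, adjusted p = 0.00037) and in Epi (-2.66 ± 0.27, adjusted p = 0.00021). Dppa3 stood at 1.16 to 1.75 times the Uhrf1 level in dICM, 0.0972 to 0.107 in Epi and 4.57 to 8.01 in ICM. Its paralog Uhrf2 rose in dICM by 2.12 ± 0.24 (adjusted p = 0.00075), and Dnmt3l, a cofactor of the de novo methyltransferases, rose in dICM by 1.41 ± 0.19 (adjusted p = 0.0019). Tet2, which encodes a 5-methylcytosine oxidase, fell in dICM (-1.52 ± 0.24, adjusted p = 0.0041) and in Epi (-5.08 ± 0.27, adjusted p = 9.3e-06). Dnmt1 averaged 12.4 ± 3.69 in dICM (SD, n = 3), 55.8 ± 29.0 in Epi (SD, n = 2) and 19.5 ± 1.00 in ICM (SD, n = 3). Its difference in dICM was -0.64 ± 0.31 (adjusted p = 0.23), and it was called higher in Epi (1.37 ± 0.35, adjusted p = 0.019). The call in Epi was lost without ICM replicate 1 (0.0505), with no filter on low values (0.066) and on rescaling every library to the same sum (0.070). Without Epi replicate 1 the difference of Dnmt1 in Epi was 0.83. Of 6 tested germ cell genes that DNA methylation is known to repress, 0 rose and 2 fell in dICM, among them Stk31 (-1.54 ± 0.25, adjusted p = 0.0048). In Epi, 1 of these 6 rose and 2 fell, with a median of 0.06, against the shares over all genes given above.

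Of 25 listed genes of the 2-cell stage and of Dppa2 and Dppa4 dependence in embryonic stem cells, 22 were in the file and 1 passed the filter on low values, the translation factor gene Eif1a, and it was called in neither comparison. The Zscan4 genes in the file, which mark the 2-cell stage, were at 0.112 or less in every library. Of 3 SCF partners of Fbxo15, 0 rose and 1 fell in dICM, Skp1a (-0.86 ± 0.19, adjusted p = 0.020), which did not pass without ICM replicate 1 (0.067), without ICM replicate 3 (0.064) or without dICM replicate 1 (0.061). In Epi, 1 of the 3 rose and 0 fell, the riser being Rbx1 (1.33 ± 0.32, adjusted p = 0.014). The call of Rbx1 was lost on rescaling every library to the same sum (1.05, adjusted p = 0.052). Without Epi replicate 1 its difference was 1.07. Over all the lists, 5 of 69 tested genes rose and 22 fell in dICM, where 7.52% of all genes were called higher and 5.81% lower. In Epi, 12 rose and 39 fell, where the shares over all genes were 16.7% and 13.3%.

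Other cell types differed between the groups, and their part in the results on the 7 genes was not tested. The summed level of 10 epiblast markers was 403 to 509 adjusted TPM in dICM, 258 to 325 in Epi and 534 to 857 in ICM. Nanog and Pou5f1 were present in every library, while Sox2 averaged 1.74 to 2.84 and Prdm14 averaged 0.0354 in Epi. Of the 10, 0 rose and 3 fell in dICM against ICM (Gdf3, Bmp4 and Tdgf1), and 0 rose and 9 fell in Epi against ICM. Over all genes, 7.52% were called higher and 5.81% lower in dICM, and 16.7% and 13.3% in Epi. The summed level of 19 primitive endoderm markers was 2539 to 2907 in dICM, 106 to 112 in Epi and 841 to 1165 in ICM, and in dICM against ICM 12 of 18 tested rose and 1 fell. The faller was Gata6, at 1.66 ± 0.316 in dICM (SD, n = 3) and 4.11 ± 1.04 in ICM (SD, n = 3; -0.93 ± 0.25, adjusted p = 0.039). Pdgfra (adjusted p = 0.19) and Sox17 (adjusted p = 0.63) were among those not called. Sparc, abundant in this lineage, averaged 1392 ± 113 in dICM (SD, n = 3), 27.5 in Epi and 474 ± 40.4 in ICM (SD, n = 3), while the factor gene Gata4 averaged 10.4 ± 1.07 in dICM (SD, n = 3) and 5.06 ± 0.383 in ICM (SD, n = 3). The 14 trophectoderm markers summed to 81.2 to 225 in dICM, 69.0 to 72.5 in Epi and 60.7 to 99.6 in ICM, and in dICM against ICM 1 of 11 tested rose and 1 fell. The riser, Gata3, averaged 8.41 ± 3.28 in dICM (SD, n = 3), 1.01 ± 0.437 in Epi (SD, n = 2) and 1.46 ± 0.949 in ICM (SD, n = 3; adjusted p = 0.0094 for dICM against ICM), and Gm2a fell (-0.91 ± 0.22, adjusted p = 0.027). Krt18 averaged 51.8 ± 59.7 in dICM (SD, n = 3) and 19.3 ± 7.95 in ICM (SD, n = 3; adjusted p = 0.49). Its dICM libraries were at 17.2, 17.5 and 121, so the higher mean in dICM came from dICM replicate 3 alone. Cdx2 was at a mean of 0.511 in dICM, 1.87 in Epi and 0.751 in ICM. The 9 blood and immune markers in the file summed to 54.1 to 134 in dICM, 2.63 to 4.14 in Epi and 5.00 to 10.1 in ICM, where the 2 tested, Laptm5 and Cd68, both rose in dICM while the defining marker Ptprc was at a mean of 0.172 in dICM and 0.154 in ICM. The 9 oocyte and granulosa markers summed to 1.68 or less in any library, and of the 8 uterine and stromal markers only Wfdc2 passed the filter. Wfdc2 averaged 13.2 ± 3.87 in dICM (SD, n = 3), was at 69.4 and 80.7 in the Epi libraries, and averaged 21.7 ± 13.0 in ICM (SD, n = 3), and it rose in Epi against ICM (1.89 ± 0.44, adjusted p = 0.012) and fell in dICM against Epi (adjusted p = 0.0034).

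By the fixed measure of likeness, Pearson's r of log2(adjusted TPM + 1) over the 8 libraries among 4781 genes, the closest gene to Dppa2 was Dppa3 (r = 0.995), followed by Slc25a20 (0.994). Dppa4 was closest to Ngdn (0.990) and not to its partner Dppa2. Dppa5a was closest to Serinc3 and Tfcp2l1 (both 0.996), Fbxo15 to H2afy (0.998) and Spp1 (0.996), Utf1 to Prim1 (0.962) and Lyar (0.956), and Tcl1 to Neat1 (0.991) and Ypel2 (0.989). Neat1, a nuclear noncoding RNA, averaged 29.7 ± 2.03 adjusted TPM in dICM (SD, n = 3), 0.651 ± 0.111 in Epi (SD, n = 2) and 11.6 ± 3.95 in ICM (SD, n = 3), in the same order as Tcl1. These correlations rest on 3 groups of libraries that each share an embryo stage, and the points of a group are not independent of each other in that respect. Dppa2, Dppa3 and Dppa4 were also chosen for their fall in dICM in these same libraries. Nothing is therefore read from the likeness of Dppa2 to Dppa3.

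Genes beside the 7 on the chromosome, in RefSeq order on GRCm38.p6, were looked at after the data were seen. Of 24 such neighbours, 18 were in the file and 9 were tested, of which 1 rose and 2 fell in dICM and 1 rose and 4 fell in Epi. Over all genes, 7.52% were called higher and 5.81% lower in dICM, and 16.7% and 13.3% in Epi. Omt2b, lower in both, passed the filter on low values only through ICM. Dppa3 lies between Gdf3, which fell in dICM, and Nanog, which did not pass the test, and beyond Nanog lies Slc2a3, a glucose transporter gene. Slc2a3 averaged 165 ± 33.6 adjusted TPM in dICM (SD, n = 3), 41.1 ± 6.53 in Epi (SD, n = 2) and 24.0 ± 1.75 in ICM (SD, n = 3), and rose in dICM by 2.71 ± 0.23 (adjusted p = 0.00016). Ooep, beside Dppa5a, averaged 3.76 ± 1.23 in dICM (SD, n = 3) and 2.34 ± 0.589 in ICM (SD, n = 3), a difference of 0.49 ± 0.26 (adjusted p = 0.27).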

How the data were processed

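RNA had been extracted from pools of embryos and amplified with a kit for small inputs, per the labels' protocols. Tools named in the submitters' processing notes are Bowtie 0.12.5 and DESeq, and the build named is mm9. Their roles, the annotation and whether strand was used are not stated in the sources used here. The authors deposited a signal per gene that their column names call adjusted TPM. The columns have no common total, so the values were treated as a signal, and the test planned for TPM-like values was kept. Read depth is unknown, and no counting interval is given.

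Computed here, genes at 1 or more in at least 2 libraries (17698 of 38924) were fitted on log2(value + 1) with limma 3.58.1 in R 4.3.3, with a mean per group over all 8 libraries, a trend in the prior variance, and 5 residual and 3.97 prior degrees of freedom. Tests were two-sided, with Benjamini-Hochberg adjustment over all genes tested and a threshold of 0.05. The fit was tested on simulated data. Symbols on several lines (204 repeats) took the line of highest mean. Near copies were found with blastn 2.17.0. The labels call the libraries biological triplicates and duplicates, each of separate pooled lysates, so p-values measure the spread between pools. The 7 genes and all lists were chosen with earlier results of these data known. The rule for names took the 7 genes, Pou5f1, Sox2, Nanog, Uhrf1 and Dnmt1, and, from each list and comparison with ICM, up to 2 genes called higher and 2 called lower with the smallest adjusted p, of which only some are printed. It added the 3 genes most like each of the 7 among named genes with a mean of 10 or more in a group, again printed in part. Some results under this rule are not reported here. The near copies, neighbouring genes, cell type markers, Eif1a and the Zscan4 genes fall outside it. Slc2a3, Ooep, Omt2b, Sparc, Gata4, Gata6, Pdgfra, Sox17, Prdm14, Bmp4, Tdgf1, Gata3, Gm2a and Krt18 were chosen after their values were seen. Alternatives were other pseudocounts, filters, rescalings and priors, fits to the compared groups only, a replicate block, summed lines, and each library left out.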

Additional observations from a re-analysis of the deposited data

How the results depend on the processing

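Of the 7 genes, none changed direction in a called difference under the 20 alternatives. The lost calls were those of Dppa4 and Utf1 in dICM minus Epi and Tcl1 in Epi minus ICM, including Dppa4 with a pseudocount of 5 (adjusted p = 0.10) and with no filter (0.11). With no filter on low values, 1278 genes were called in dICM minus ICM, against 2360, list genes lower in dICM numbered 14, against 22, and 0 of the 7 genes were called lower in dICM minus Epi, against 1. With a filter of 5, list genes higher in dICM numbered 3, against 5. Leaving out single libraries gave 1404 (without ICM replicate 1) to 2148 calls in dICM minus ICM, 1788 (without Epi replicate 1) to 5257 in Epi minus ICM and 2539 (without Epi replicate 1) to 6351 in dICM minus Epi; without Epi replicate 2 the last pair of counts was 2618 and 3196. It gave 5 to 6 of the 7 genes lower in Epi minus ICM, 5 to 6 higher and 0 to 1 lower in dICM minus Epi, the 0 arising without either Epi library. List genes numbered 3 to 5 higher and 14 to 21 lower in dICM minus ICM, and 7 to 12 higher and 29 to 40 lower in Epi minus ICM, the lowest counts of higher genes arising without ICM replicate 1 and Epi replicate 1. A lone Epi library is assumed to vary like the other groups. Rescaling every library to the same sum turned the split of calls in dICM minus ICM to 862 higher and 1480 lower, against 1331 and 1029, and in Epi minus ICM to 1537 and 2747, against 2963 and 2361. Median-of-ratios rescaling gave 2134 and 2684 in Epi minus ICM and 3280 and 2240 in dICM minus Epi, against 2830 and 3283. The cause was not tested.

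Deviations of same-numbered libraries from their group means correlated at -0.06 to 0.13 over 7 pairs, and those of other pairs at -0.15 to 0.06. The same-numbered pairs of ICM with dICM were at 0.02, 0.10 and 0.13. The deviations of the 2 Epi libraries are mirror images of each other. Whether replicate numbers pair the libraries is therefore not settled. With the replicate block, 2004 genes were called in dICM minus ICM, 4475 in Epi minus ICM and 5314 in dICM minus Epi, and of the 7 genes only Dppa4 in dICM minus Epi lost its call (adjusted p = 0.082).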
